A study of Mus musculus with 9 samples.

Results

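Krüppel-like factors are zinc finger transcription factors that bind GC-rich and CACCC-type boxes in gene promoters. In the monocyte and macrophage lineage, Klf2 is known as a brake on activation and Klf4 as a factor of monocyte differentiation. Other members act mainly as repressors, Klf3 through the corepressor CtBP and Klf9, Klf10, Klf13 and Klf16 through Sin3a. The members described here were Klf2, Klf3, Klf4, Klf6, Klf7, Klf9, Klf10, Klf13 and Klf16, taken by gene symbol from the 56691 genes of the expression table. All 9 had at least 1 FPKM (fragments scaled by exonic length and by the size of the library) in at least 3 libraries and so were among the 11995 genes tested. Klf2 and Klf3 reached 1 FPKM in 8 of the 9 libraries and the other 7 members in all 9.

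The RNA came from RAW264.7 cells, a mouse macrophage line that forms osteoclast-like cells when given RANKL, the cytokine that drives osteoclast formation. The 3 groups were control cells without RANKL, cells given RANKL, and cells given RANKL together with UD, the study's short name for the nucleoside uridine, all harvested on day 3. Each group had 3 libraries, and UD was compared only on top of RANKL, since UD given without RANKL was not analysed here. The labels call the 3 libraries of a group replicate biosamples without saying whether they came from separate cultures, so the p-values below measure the spread between these libraries. The labels name no UD dose for these libraries.

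The 9 libraries held between 15951800 and 19746862 counted reads, with a median of 19182637. The 11 osteoclast markers summed to 67.9 to 74.4 FPKM in control, 2768 to 2979 under RANKL and 1823 to 1860 under RANKL + UD. Of these, 10 were tested and called higher under RANKL. However, Itgb3 reached 1 FPKM only in the 3 RANKL libraries, and Mmp9 and Oscar only in the 6 libraries given RANKL. Acp5 reached it in those 6 and in control replicate 3. The filter thus favoured that outcome for these genes. From RANKL to RANKL + UD 9 were lower and Car2 was higher (0.29). Itgb3 was among the 9 lower, at 0.66 to 0.78 FPKM with UD, so the filter favoured that call too. The 9 macrophage markers summed to 9080 to 9682, 2395 to 2623 and 2096 to 2226 FPKM in the same order, most of it Lyz2, at a mean of 8000 FPKM in control. Of the 8 tested, 7 were lower under RANKL and Cd68 was higher (0.60). From RANKL to RANKL + UD 5 were lower and Adgre1 was higher (0.22), a call lost without RANKL replicate 1 (0.20) or RANKL + UD replicate 3 (0.16). Mertk was under 1 FPKM in every library. Beside these marker counts, 27.3% of all genes tested were called higher and 30.2% lower under RANKL. From RANKL to RANKL + UD the shares were 18.6% higher and 20.2% lower. All 16 markers of T cells, B cells, fibroblasts, osteoblasts, epithelium and endothelium were under 1 FPKM in all 9 libraries, summed to at most 1.44 FPKM, and 5 of them were at 0 throughout. In bulk RNA, fewer cells expressing a gene and less of its RNA per cell cannot be told apart, and the part that the share of osteoclast-like cells had in the values of the Klf genes was not tested.

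The upstream windows of 4 members are shown because these genes were among those that fell under UD and because their windows hold different motifs. They are the 250 bases before the annotated start, from RefSeq on GRCm38.p6, written 5′ to 3′ on the strand of the gene, with capitals marking matches to the MEF2 motif and to E-box (CACGTG), FoxO (GTAAACA) and AP-1 (TGANTCA) letters.
Klf2, chr8:72318812-72319061, plus strand: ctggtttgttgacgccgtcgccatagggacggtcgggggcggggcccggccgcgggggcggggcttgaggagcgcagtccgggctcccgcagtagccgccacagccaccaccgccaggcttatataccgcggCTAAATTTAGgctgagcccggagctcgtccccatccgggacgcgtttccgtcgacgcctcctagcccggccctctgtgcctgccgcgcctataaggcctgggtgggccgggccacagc
Klf4, chr4:55532476-55532725, minus strand: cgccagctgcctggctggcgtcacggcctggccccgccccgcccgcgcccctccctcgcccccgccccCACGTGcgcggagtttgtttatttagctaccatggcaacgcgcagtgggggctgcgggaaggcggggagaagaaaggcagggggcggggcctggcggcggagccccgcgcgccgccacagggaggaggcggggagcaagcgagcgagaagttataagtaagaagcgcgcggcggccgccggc
Klf6, chr13:5861239-5861488, plus strand: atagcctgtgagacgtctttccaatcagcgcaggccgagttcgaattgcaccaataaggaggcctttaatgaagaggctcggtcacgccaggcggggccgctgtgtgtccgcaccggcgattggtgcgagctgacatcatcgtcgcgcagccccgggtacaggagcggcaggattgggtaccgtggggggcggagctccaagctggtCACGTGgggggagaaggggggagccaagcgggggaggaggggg
Klf9, chr19:23140976-23141225, plus strand: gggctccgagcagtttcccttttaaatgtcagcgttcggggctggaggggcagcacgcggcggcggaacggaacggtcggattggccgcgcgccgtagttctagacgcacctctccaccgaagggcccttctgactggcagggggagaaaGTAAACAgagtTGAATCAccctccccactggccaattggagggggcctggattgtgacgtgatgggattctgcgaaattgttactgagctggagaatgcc
The Klf2 window held a single MEF2 match, CTAAATTTAG, between 118 and 109 bases before the start, where 3.2% of all 32851 RefSeq mouse promoter windows of this length held one. Klf4 and Klf6 each held an E-box, which 6.02% of all windows did. Klf9 held a FoxO match between 100 and 94 bases before the start and an AP-1 match between 89 and 83, motifs present in 3.17% and 6.75% of all windows. The last 2 bases of that AP-1 match are also the first 2 of a CACCC box. The 4 windows were picked for these matches: of the 7 members with a window, 1 held a MEF2 match, 1 a FoxO match, 1 an AP-1 match and 2 an E-box.

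RefSeq windows were matched for 7 of the 9 members, all but Klf10 and Klf16. Both strands were searched. The box that Krüppel-like factors themselves bind, CACCC, was in 5 of the 7 windows and in 52.0% of all windows, and the GC box GGGCGG was in 6 of the 7 and in 32.7% of all windows. CCAAT was in 3 of the 7, with 4 copies in Klf6, and in 33.8% of all windows. None of the 7 held the full cyclic AMP element TGACGTCA, which 1.55% of all windows held. The GC content of the 7 windows ran from 59.2% in Klf7 to 78.4% in Klf3, beside a median of 52.4% over all windows. These matches describe the letters of the windows, and no binding was measured.

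**Figure D1:**
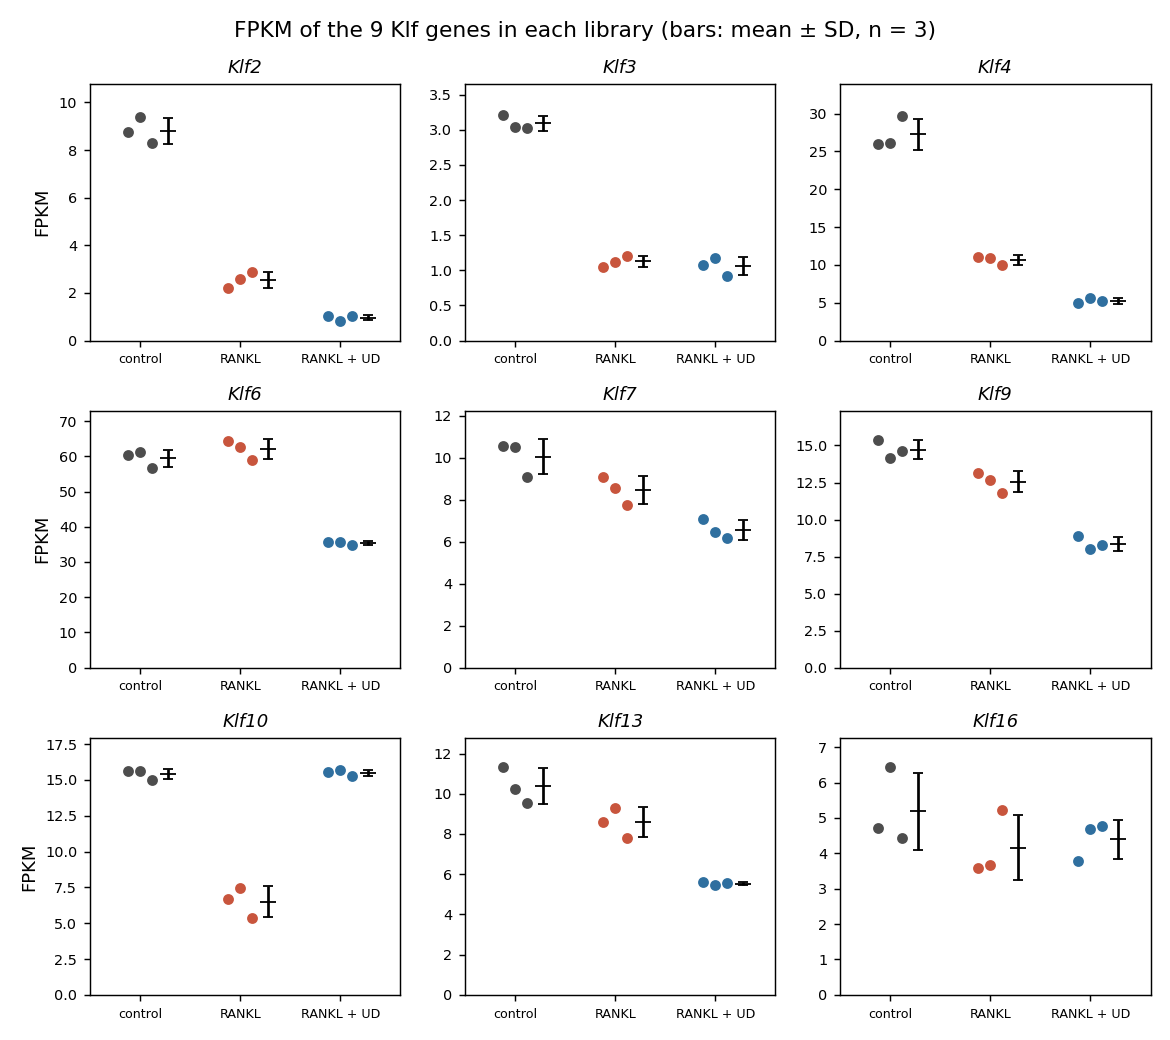
FPKM of each of the 9 Klf genes (vertical axes, linear and from 0) in the 3 libraries of each group (points), with the mean and SD of the group beside them. Klf2 and Klf4 step down from control to RANKL and again to RANKL + UD, Klf10 drops under RANKL and lies at 15.3 to 15.7 FPKM with UD, and the libraries of Klf16 overlap in every group.

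Klf2 and Klf4 fell at both steps, from control to RANKL and from RANKL to RANKL + UD. Klf2 (ENSMUSG00000055148) had 8.74, 9.38 and 8.28 FPKM in control, 2.20, 2.58 and 2.88 under RANKL, and 1.02, 0.83 and 1.03 under RANKL + UD. The groups did not overlap, and the last rested on 25 to 37 reads per library. With edgeR's quasi-likelihood test and Benjamini-Hochberg adjustment, the log2 fold change of Klf2 for RANKL against control was -1.70 (SE 0.148, adjusted p = 2.71e-09). For RANKL + UD against RANKL it was -1.48 (SE 0.190, adjusted p = 2.75e-06), and Klf2 was then at 11.0% of control. Among the genes tested, its FPKM stood at percentile 55.7 in control, 25.1 under RANKL and 5.56 under RANKL + UD.

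Klf4 (ENSMUSG00000003032), one of the factors used to reprogram cells to pluripotency, was the second most abundant member in control. It had 25.99, 26.13 and 29.63 FPKM in control, 11.02, 10.95 and 9.92 under RANKL, and 4.94, 5.65 and 5.16 under RANKL + UD. No library of a group reached the range of the group above it. The log2 fold change was -1.27 for RANKL against control (SE 0.0762, adjusted p = 5.86e-12) and -1.11 for RANKL + UD against RANKL (SE 0.0855, adjusted p = 2.53e-09). Klf4 under RANKL + UD was at 19.3% of its control level.

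Klf3 (ENSMUSG00000029178) fell under RANKL and did not pass the test between RANKL and RANKL + UD. It had 3.21, 3.04 and 3.02 FPKM in control, 1.05, 1.12 and 1.21 under RANKL, and 1.08, 1.17 and 0.92 under RANKL + UD. The libraries of the last pair of groups overlapped, while those of control lay above both. The change under RANKL was -1.37 (SE 0.101, adjusted p = 1.88e-10), and the difference that UD made was -0.18 with a 95% interval from -0.41 to 0.05 (adjusted p = 0.219).

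Klf10 (ENSMUSG00000037465), first described as an early gene induced by TGF-beta, was the only member of the 9 called higher when UD was added to RANKL. It had 15.6, 15.6 and 15.0 FPKM in control, 6.67, 7.47 and 5.33 under RANKL, and 15.6, 15.7 and 15.3 under RANKL + UD. The RANKL libraries lay below all others, and the control and RANKL + UD libraries overlapped. The log2 fold change of Klf10 was -1.16 for RANKL against control (SE 0.0871, adjusted p = 2.46e-10) and 1.17 for RANKL + UD against RANKL (SE 0.0870, adjusted p = 1.57e-09). Between RANKL + UD and control the difference was 0.01, with a 95% interval from -0.16 to 0.18 (adjusted p = 0.922). These comparisons share libraries, so the fall and the return are not independent measurements.

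Klf6 (ENSMUSG00000000078), a factor known from tissue injury and from inflammatory activation of macrophages, was the most abundant member in each of the 3 groups. Its libraries had 60.3, 61.1 and 56.7 FPKM in control, 64.3, 62.8 and 58.9 under RANKL, and 35.7, 35.8 and 34.8 under RANKL + UD. The control and RANKL libraries overlapped, and the RANKL + UD libraries lay below both. Klf6 fell from RANKL to RANKL + UD, with a log2 fold change of -0.89 (SE 0.0496, adjusted p = 2.24e-11). Against control, RANKL gave a log2 fold change of 0.15 (SE 0.0486, adjusted p = 0.0126), which was 0.06 and not called when counts were scaled by their totals (adjusted p = 0.291) or with limma on FPKM (adjusted p = 0.272), and 0.12 without RANKL replicate 1 (adjusted p = 0.0639).

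Klf7, Klf9 and Klf13 stood at mean levels of 10.0, 14.7 and 10.4 FPKM in control and fell from RANKL to RANKL + UD. Klf9 (ENSMUSG00000033863), a gene induced by glucocorticoid and thyroid hormone, had 15.4, 14.2 and 14.6 FPKM in control, 13.2, 12.7 and 11.8 under RANKL, and 8.89, 7.98 and 8.26 under RANKL + UD. Klf13 (ENSMUSG00000052040), known from T cells as an activator of a late chemokine gene, had 11.3, 10.2 and 9.55, then 8.61, 9.30 and 7.81, then 5.59, 5.46 and 5.55 FPKM. Klf7 (ENSMUSG00000025959), known from the developing nervous system, had 10.5, 10.5 and 9.07, then 9.06, 8.55 and 7.74, then 7.07, 6.44 and 6.17 FPKM. For each of these genes the 3 groups did not overlap in FPKM, although the lowest control and highest RANKL libraries of Klf7 were nearly equal. From RANKL to RANKL + UD the log2 fold change was -0.72 for Klf13 (SE 0.0750, adjusted p = 1.83e-07), -0.67 for Klf9 (SE 0.0691, adjusted p = 1.61e-07) and -0.45 for Klf7 (SE 0.0757, adjusted p = 7.15e-05).

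From control to RANKL the same genes differed by less. Klf13 passed the test at -0.19 (SE 0.0722, adjusted p = 0.0318), while Klf7 at -0.16 (adjusted p = 0.0669) and Klf9 at -0.14 (adjusted p = 0.0738) did not. These calls moved with the libraries and the scaling. Klf13 was not called without control replicate 1 (-0.12), control replicate 2 (-0.20), RANKL replicate 1 (-0.19) or RANKL replicate 3 (-0.12), nor with DESeq2 (adjusted p = 0.0617), with no filter (adjusted p = 0.0517) or with the 6 libraries of the comparison alone (adjusted p = 0.0777). Klf7 was called without control replicate 3 (-0.23) or RANKL replicate 1 (-0.22), Klf9 without RANKL replicate 1 (-0.18), and both when counts were scaled by their totals (-0.25 and -0.23) or with limma on log2(FPKM + 1) (-0.22 and -0.22).

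Klf16 (ENSMUSG00000035397) passed no test. It had 4.71, 6.44 and 4.43 FPKM in control, 3.59, 3.68 and 5.22 under RANKL, and 3.77, 4.68 and 4.76 under RANKL + UD. Control replicate 2 and RANKL replicate 3 were each the high library of their group, and all 3 groups overlapped. The differences were -0.24 for RANKL against control (95% interval -0.57 to 0.10) and -0.01 for RANKL + UD against RANKL (-0.35 to 0.33). Without RANKL replicate 3, Klf16 was called lower under RANKL than in control (-0.43, adjusted p = 0.0335), and the difference with UD was 0.19 (adjusted p = 0.42).

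**Figure D2:**
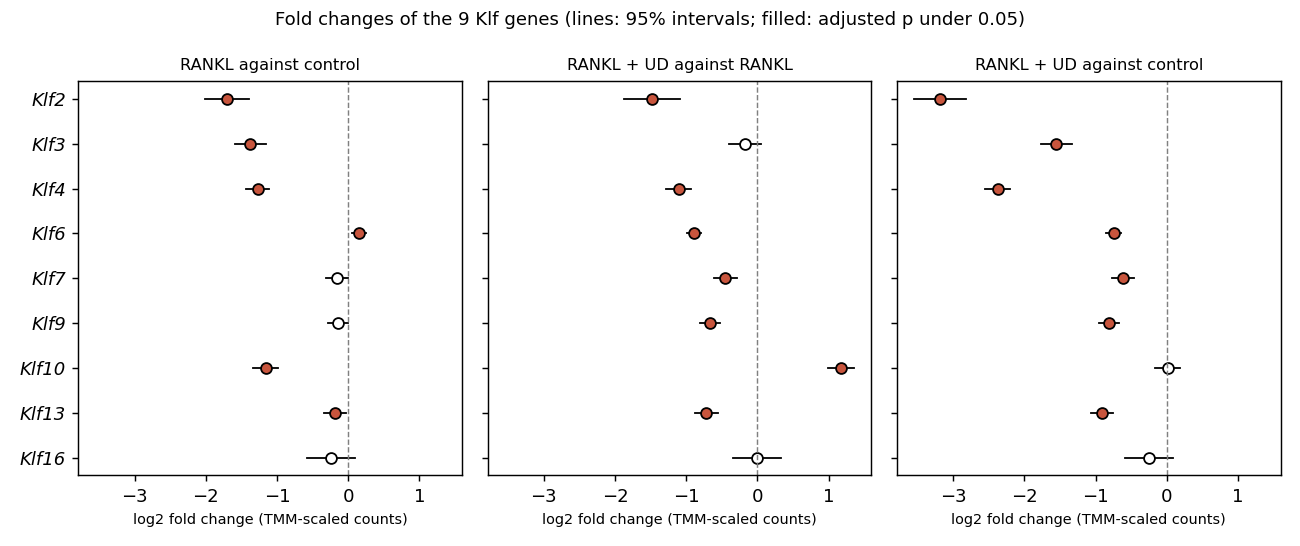
Log2 fold change of each Klf gene (horizontal axes, from counts scaled by the trimmed mean of M-values) in the 3 comparisons, with 95% intervals as lines and filled points where the adjusted p was under 0.05. With RANKL + UD against RANKL, 6 genes lie left of 0 with filled points and Klf10 alone lies right of 0 with one, at 1.17.

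Counted over the 9 members, RANKL against control gave 1 higher (Klf6), 5 lower (Klf2, Klf3, Klf4, Klf10 and Klf13) and 3 not called. Over all 11995 genes tested, 57.6% were called in this comparison, 27.3% higher and 30.2% lower. Klf2, Klf3, Klf4 and Klf10 were lower by at least 2-fold, as were 7.06% of all genes tested. Over the 18 alternatives Klf3 ran from -1.46 to -0.94, called in each but under 2-fold at its smallest. No member was higher by at least 2-fold, as 5.39% of all genes were. In FPKM, 61.7% of all genes had no overlap between the groups, 38.8% wholly below control and 22.9% wholly above, and 7 members lay wholly below and none above. The median log2 fold change of the members was -0.24, beside -0.03 over all genes tested. The share of higher calls among all called genes was 47.5%, and 36.9% when counts were scaled by their totals.

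For RANKL + UD against RANKL, 1 member was higher (Klf10), 6 were lower (Klf2, Klf4, Klf6, Klf7, Klf9 and Klf13) and 2 were not called (Klf3 and Klf16). Of all genes tested, 38.8% were called, 18.6% higher and 20.2% lower. Klf2 and Klf4 were lower by at least 2-fold, as were 1.79% of all genes, and Klf10 was higher by at least 2-fold, as were 1.18%. With limma on log2(FPKM + 1), where the added 1 shrinks the changes of low genes, Klf2 was at -0.86 and Klf4 at -0.90, both still called but under 2-fold. These 6 lower members and Klf10 were also the ones whose libraries did not overlap in FPKM, where 51.7% of all genes did not overlap, 17.6% wholly below and 34.1% wholly above. The median was -0.67 for the members and 0.00 over all genes. The higher share of called genes was 48.0%, and 66.2% with scaling by totals, while the calls of the 9 members were the same under both scalings.

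For RANKL + UD against control, no member was called higher, 7 were lower and 2 (Klf10 and Klf16) were not called, while 54.0% of all genes were called, 26.7% higher and 27.3% lower. DESeq2 and limma also called none higher, nor did any reach an unadjusted p of 0.05 in that direction. In FPKM, 7 members lay wholly below control and none above, beside 59.9% of all genes without overlap, 30.4% below and 29.5% above. Klf2, Klf3 and Klf4 were lower by at least 2-fold, as were 7.04% of all genes, and no member was higher by that much, as 4.49% were. Over the 18 alternatives Klf3 ran from -1.62 to -0.99, called in each but just under 2-fold at its smallest. The log2 fold changes were -3.18 for Klf2 (SE 0.172), -2.38 for Klf4 (SE 0.0827) and -1.55 for Klf3 (SE 0.103). Those of Klf13, Klf9, Klf6 and Klf7 were -0.90, -0.81, -0.74 and -0.61, with a highest adjusted p of 5.84e-07 among all 7. This comparison shares its libraries with the other pair and adds no independent sample.

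The members differed in level by more than 10-fold within a group, and their order in FPKM changed with treatment. In control the order was Klf6, Klf4, Klf10, Klf9, Klf13, Klf7, Klf2, Klf16 and Klf3, in which Klf10 and Klf9 overlapped in their libraries, as did Klf13, Klf7 and Klf2 from one to the next. With RANKL it was Klf6, Klf9, Klf4, Klf13, Klf7, Klf10, Klf16, Klf2 and Klf3, with an overlap only between Klf13 and Klf7. With RANKL + UD it was Klf6, Klf10, Klf9, Klf7, Klf13, Klf4, Klf16, Klf3 and Klf2, with overlaps between Klf13 and Klf4 and between Klf3 and Klf2. Klf10 thus stood at place 3, then 6, then 2, and Klf4 at place 2, then 3, then 6.

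**Figure D3:**
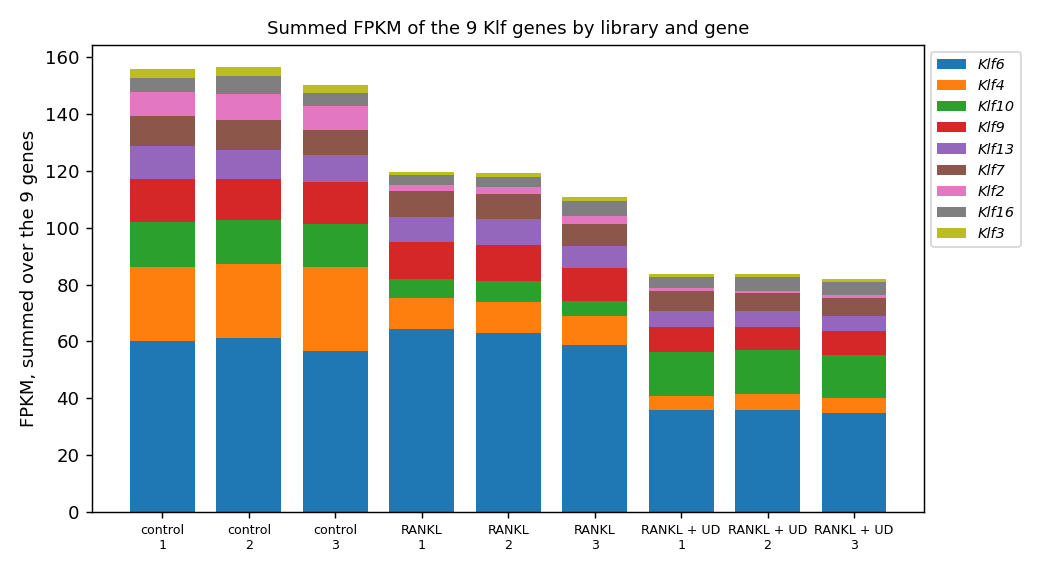
FPKM of the 9 Klf genes stacked in each library (vertical axis, linear and from 0; colours name the genes). The stacks reach 150.3 to 157 FPKM in control, 111 to 120 under RANKL and 82.0 to 83.7 under RANKL + UD, and the Klf10 layer is thinnest in the RANKL libraries.

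The summed FPKM of the 9 genes was 154 ± 3.45 (SD, n = 3) in control, 117 ± 5.01 under RANKL and 83.1 ± 0.974 under RANKL + UD, without overlap between groups. Klf6 supplied 38.5% of this sum in control, 53.2% under RANKL and 42.6% under RANKL + UD. The share of Klf4 was 17.7%, 9.12% and 6.32%, and that of Klf2 was 5.70%, 2.20% and 1.16%. Klf10 supplied 9.99%, 5.55% and 18.7%. FPKM measures transcripts and says nothing of how much of each protein was present.

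Counts of called genes in the lists below stand beside 27.3% higher and 30.2% lower over all genes tested under RANKL, and 18.6% higher and 20.2% lower from RANKL to RANKL + UD, with all-gene medians of -0.03 and 0.00. Outside the 9 members the table held 8 further Klf genes. Klf1, Klf5, Klf12, Klf14, Klf15 and Klf17 were under 1 FPKM in all 9 libraries, with Klf14 and Klf15 at 0 throughout. Klf8 had means of 3.42, 3.54 and 3.34 FPKM across control, RANKL and RANKL + UD, the order kept for the means below, and passed no test. Klf11, the closest relative of Klf10, had 3.34, 1.44 and 2.15 FPKM, with log2 fold changes of -1.13 for RANKL against control (adjusted p = 1.5e-06) and 0.50 for RANKL + UD against RANKL (adjusted p = 0.014). The second was not called without RANKL replicate 2 (0.40, adjusted p = 0.0781) or without RANKL + UD replicate 1 (0.44, adjusted p = 0.0601). Klf11 under RANKL + UD was still lower than in control (-0.63, adjusted p = 9.1e-04).

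The Sp factors, the other branch of this zinc finger family, had 4 tested genes. Of these, 2 were lower under RANKL than in control. Sp1 (-0.15) was not called without control replicate 1 (-0.11), control replicate 2 (-0.13), RANKL replicate 2 (-0.16) or RANKL replicate 3 (-0.09), nor with DESeq2, RLE size factors or the 6 libraries alone (-0.13, -0.13 and -0.12). Between RANKL and RANKL + UD edgeR called 0 of the 4, with 0 at an unadjusted p of 0.05, DESeq2 called 0 and limma called 1. The medians of the list were -0.13 and 0.03 at these steps. Sp4 had 3.52, 1.91 and 2.31 FPKM and a log2 fold change of -0.79 under RANKL. Sp3, at 34.1, 33.8 and 33.5 FPKM, passed no test.

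Of the 10 corepressors and acetyltransferases that Klf proteins bind, 4 were higher and 1 lower under RANKL, and 2 were higher and 3 lower under RANKL + UD than under RANKL. With 1 library left out, the 1 lower under RANKL (Sin3a) became 0 without RANKL replicate 2 and 2 without RANKL replicate 1 or control replicate 2. The 2 higher with UD became 1 without RANKL replicate 1 or RANKL + UD replicate 3 (Ctbp1 lost) and without RANKL replicate 2 or RANKL + UD replicate 2 (Hdac1 lost). Sin3b, among the 3 lower with UD, kept its call under 6 of the 18 alternatives. Fhl3, among the 4 higher under RANKL (0.22), was not called without RANKL replicate 2 (0.15) or control replicate 2 (0.20). Nor was it called with counts scaled by their totals or with limma at either pseudocount (0.13 each). The Klf3 partner Ctbp2 was at 8.83, 9.81 and 10.2 FPKM and rose by 0.24 under RANKL. Fhl3, which takes part in Klf3 repression, had 27.5, 30.1 and 22.2 FPKM and fell by 0.52 on the log2 scale from RANKL to RANKL + UD. Crebbp, an acetyltransferase, had 3.80, 3.91 and 2.91 FPKM and fell by 0.51 on that scale at the same step. The median log2 fold change of the list was 0.07 under RANKL and -0.04 with UD.

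The kinase ERK5 and the MEF2 factors switch on Klf2 and Klf4 in endothelium, and the ligases Wwp1 and Smurf1 are known to mark Klf2 for breakdown. In this list of 11 tested genes, 2 were higher and 5 lower under RANKL, and 1 was higher and 4 lower from RANKL to RANKL + UD, with medians of -0.12 and 0.01. Mef2c went from 28.3 FPKM in control to 7.42 under RANKL and 8.86 under RANKL + UD, a log2 fold change of -1.85 under RANKL. The 1 higher gene with UD was Mef2c, and its rise of 0.17 with UD was not called without RANKL replicate 3 (0.12) or without any of the RANKL + UD replicates (0.17 each). Mef2a went from 22.5 to 14.0 and 11.6 FPKM and fell at both steps (-0.60 and -0.36). Mef2d stood at 25.0, 24.7 and 22.4 FPKM, 0.07 and not called under RANKL, and -0.22 with UD. Mapk7, the gene of ERK5, had 3.33, 2.88 and 2.61 FPKM and passed the test at neither step. For RANKL + UD against control it was called lower (-0.35), a call kept under 11 of the 18 alternatives. Smurf1 rose under RANKL by 0.73 and Wwp1 fell by 0.54, and neither passed the test between RANKL and RANKL + UD. Map2k5, among the 4 lower with UD (-0.18), kept its call under 10 of the 18 alternatives. The 4 became 3, with Map2k5 lost, without replicate 1 or 3 of RANKL or of RANKL + UD. Fbxw7, among the 5 lower under RANKL (-0.28), was not called without RANKL replicate 2 (-0.21).

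Genes known from other cells to be switched on by Klf2 or Klf4 had 3 of 9 members above the filter, and of the other 6 only Cdkn1c was at 0 in all 9 libraries. Mrc1, the mannose receptor gene, was left out of the test by the filter and had 82, 126 and 80 reads in control, 8, 5 and 3 under RANKL, and 5, 2 and 9 under RANKL + UD. S1pr1, a receptor for sphingosine 1-phosphate and a direct Klf2 target in T cells, had 10.5, 1.41 and 0.407 FPKM. It fell at both steps (-2.80 and -1.85), having entered the test through its control and RANKL libraries. Its RANKL + UD level rested on 33, 23 and 11 reads. The change with UD ran from -2.16 to -0.78 over the 18 alternatives and was called in each. Itgb7, an integrin gene, had 7.46, 7.47 and 5.59 FPKM with a fall called from RANKL to RANKL + UD (-0.50) and none called from control to RANKL (0.09). Cdkn1a, a cell cycle inhibitor, had 56.8, 41.9 and 42.8 FPKM and fell by 0.35 under RANKL. Of the 3 genes, 2 were lower at each step, and the medians were -0.35 and -0.50.

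Genes known to be held down by Klf2 or Klf4 had 6 tested members of 7, of which 1 was higher and 4 lower under RANKL, and 1 higher and 1 lower from RANKL to RANKL + UD, with medians of -0.90 and -0.14. Il1b, among the 4 lower genes, reached 1 FPKM only in the 3 control libraries, so the filter favoured its call (1.34, 1.57 and 1.15 FPKM there and 0.13 to 0.30 elsewhere). Tnf went from 60.5 to 21.6 and 21.5 FPKM and fell by 1.40 under RANKL. Ptgs2, the inducible cyclooxygenase, went from 10.9 to 0.907 and 0.763 FPKM and fell by 3.50 under RANKL. It reached 1 FPKM in the 3 control libraries and 1 RANKL library, so the filter favoured that call too. Nos2, the inducible nitric oxide synthase, went from 0.483 to 2.40 and 0.987 FPKM, with log2 fold changes of 2.39 and -1.36. It was the 1 gene called higher under RANKL and the 1 called lower with UD. Nos2 reached 1 FPKM in the 3 RANKL libraries and 1 RANKL + UD library, so the filter favoured both calls. Ccl2, a chemokine for monocytes, went from 8.09 to 5.79 and 12.1 FPKM and rose by 0.98 from RANKL to RANKL + UD. Its lower level under RANKL (-0.40) was not called without RANKL replicate 2 (-0.37), control replicate 1 (-0.37) or control replicate 2 (-0.33).

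The clock and the glucocorticoid receptor are inputs known for Klf9 and Klf10. The list of clock genes, the gene of this receptor and targets of the receptor had 11 tested genes. With RANKL 4 were higher and 4 lower, and from RANKL to RANKL + UD 3 were higher and 6 lower, with medians of -0.12 and -0.31. The 6 lower with UD became 3 without RANKL replicate 2 or RANKL + UD replicate 1, where Per1, Cry2 and Dbp were lost, and 4 without RANKL replicate 3. Of the 4 higher under RANKL, 1 (Tsc22d3) kept its call under all 18 alternatives, and Nr1d1 kept it under 6. Tsc22d3, the glucocorticoid-induced leucine zipper, went from 5.35 to 7.51 and 3.24 FPKM, with log2 fold changes of 0.58 and -1.30. Fkbp5, another glucocorticoid target, went the opposite way, with 4.61, 2.61 and 3.75 FPKM and changes of -0.73 and 0.44. Of the clock genes, Nr1d2 (-0.60) and Arntl (-0.49) fell from RANKL to RANKL + UD, while Cry1 rose by 0.54 and Clock by 0.49. The receptor gene Nr3c1 fell under RANKL (-0.43) and differed by 0.03 with UD, which was not called.

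**Figure D4:**
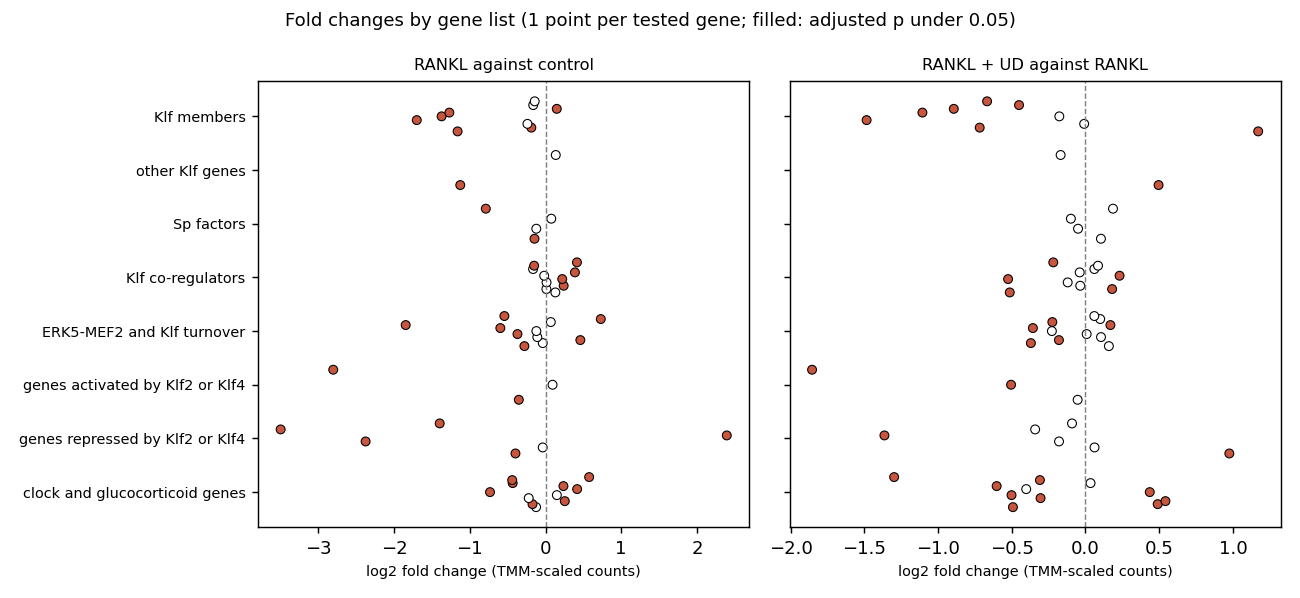
Log2 fold changes of the tested genes of each list (1 point per gene, filled where the adjusted p was under 0.05) for RANKL against control and for RANKL + UD against RANKL, with separate horizontal scales. In the second comparison every list but the genes activated by Klf2 or Klf4 spreads to both sides of 0, and S1pr1 at -1.85 is the lowest point there.

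The genes whose course over the 9 libraries was closest to that of the 3 members with the largest changes with UD were sought by the root-mean-square difference of log2 CPM (counts scaled to the library size), each gene centred on its own mean. For Klf2 they were Lilrb4b, Dpep2 and Cd300c2, at 0.222, 0.244 and 0.259 (median over all genes tested, 1.30). Lilrb4b, a receptor gene of myeloid cells, had 166 FPKM in control, 54.2 under RANKL and 25.0 under RANKL + UD. For Klf4 they were Mcoln2, Xylt1 and Plscr4, at 0.141, 0.143 and 0.148 (median 0.994), and Mcoln2, a lysosomal cation channel gene, had 16.4, 7.15 and 3.16 FPKM. For Klf10 they were Slfn9, Gm42047 and Pbk, at 0.157, 0.158 and 0.160 (median 0.615), and Pbk, a mitotic kinase gene, had 35.3, 14.7 and 31.8 FPKM. Likeness here is in course and not in level.

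The table places Klf2 at chr8:73072877-73075500 and Klf13 at chr7:63536099-63588663, Klf3 at chr5:64960731-64990244 and Klf4 at chr4:55527143-55532466. It places Klf6 at chr13:5911481-5920393, Klf7 at chr1:64068606-64161441 and Klf9 at chr19:23118590-23145498, and Klf10 at chr15:38291707-38300950 and Klf16 at chr10:80402958-80413155. These positions are as deposited, and only 1 of the 9 equals the position of the gene in the GRCm38 annotation, so they are not on the scale of the promoter windows above. Klf2, Klf3, Klf6 and Klf9 are on the plus strand and the others on the minus strand. Some members share their locus with other genes. Klf3, Klf7 and Klf13 overlap genes on the opposite strand, of which none exceeded 0.79 FPKM in any library, and Klf7 and Klf9 contain miRNA genes on their own strand. Klf3 also overlaps C230096K16Rik on its own strand, a gene of at most 0.45 FPKM. The libraries were made with a strand-marking kit, but whether the counting used strand was not given in the sources used here.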

How the data were processed

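RNA of 9 libraries was sequenced. The authors deposited 1 table of raw read counts per gene and FPKM per gene and library. Every deposited FPKM could be recomputed from its count, the exonic length and the library total. The submitters' notes name the build mm10, but the coordinates of only 1 of the 9 members equal those of the GRCm38 annotation, so gene coordinates are given as listed. The aligner and counter were not given in the sources used here. Counts were tested, for genes reaching 1 FPKM in 3 or more libraries, with edgeR 4.0.16 in R 4.3.3 (quasi-likelihood test, all 9 libraries in 1 fit, group only, TMM scaling), with Benjamini-Hochberg adjustment over 11995 genes and calls at an adjusted p of 0.05. The fit was tested on simulated data. The members and lists were chosen with earlier results of these data known. Named genes were the members, the genes of the lists, and the 3 genes closest in course to each of the 3 members with the largest called change with UD. Log2 CPM for this used a prior count of 2. Alternatives were RLE and total-count scaling, other filters, DESeq2 1.42.0, limma 3.58.1 on log2(FPKM + 1) and log2(FPKM + 0.1), the 6 libraries of a comparison, a replicate block and leaving out each library. Replicates differed by more than sampling noise (chi-square per degree of freedom 2.83 to 8.22).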

Additional observations from a re-analysis of the deposited data

How the results depend on the processing

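Across 18 alternatives, 457 of 486 member values kept their direction and call. Every member call of RANKL + UD against RANKL and against control was kept, as were those of Klf2, Klf3, Klf4 and Klf10 for RANKL against control. There, members called lower numbered 4 to 7 over all alternatives and 4 to 6 when 1 library was left out. The 1 higher call (Klf6) became 0 with total counts, with limma at either pseudocount and without RANKL replicate 1, and so was 0 to 1 when 1 library was left out. RANKL libraries had TMM factors of 0.959 to 0.963 and the others 1.01 to 1.03, and total counts moved the median of all genes for RANKL against control from -0.03 to -0.12. Genes called lower for RANKL + UD against RANKL numbered 2418, but 1556 with limma on log2(FPKM + 1) and 1536 on log2(FPKM + 0.1). Uncalled values changed sign for Klf16 with UD against RANKL (-0.01), to 0.0777 with total counts, 0.0747 and 0.0923 with limma on log2(FPKM + 1) and log2(FPKM + 0.1), and to between -0.10 and 0.19 when 1 library was left out (0.19 without RANKL replicate 3, 0.09 without RANKL + UD replicate 1). They did for Klf10 against control (0.01), with values of -0.00846 to 0.0252 when 1 library was left out, the lowest without control replicate 3. Of 88 calls among genes of the lists other than markers, 67 were kept under all 18 alternatives. The cause was not tested. The higher share of called genes with limma was 65.7% to 66.0% for RANKL + UD against RANKL and 36.9% to 37.0% for RANKL against control. At 25 to 37 reads, Klf2 with RANKL + UD was the member most limited by depth.

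Replicate numbers are shared across groups in the labels, which do not say whether same-numbered libraries were paired. Deviations of same-numbered libraries correlated at -0.02 to 0.10, none over 0.1, and those of other-numbered libraries at -0.10 to 0.05. Of 18 library and group combinations, 11 were highest with their own number. These combinations take each pair of groups from both sides and so are not independent, and the count was not tested against chance. With the replicate block, RANKL against control gave 7 members lower and 1 higher, Klf7 (adjusted p = 0.0189) and Klf9 (adjusted p = 0.0499) being added, RANKL + UD against RANKL 6 lower and 1 higher, and RANKL + UD against control 7 lower and 0 higher. Over all genes the block gave 3694 lower and 3346 higher, 2518 and 2347, and 3334 and 3268 in the same order.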
